A study of Mus musculus with 4 samples.

Results

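Red blood cell genes were examined in cardiac neural crest cells (NCCs) that lacked integrin-linked kinase (ILK) and in control NCCs. The 5 genes were Alas2, Slc4a1, Rhag, Car2 and Hemgn. A probe set, the group of array probes that reads 1 transcript, was taken if the authors' table of differing probe sets gave 1 of these genes as its sole name. This rule found 6 of the 45101 probe sets of the array, 1 for each gene and a second for Slc4a1, and 5 of the 542 genes named alone in that table. The authors had placed a probe set in their table because it differed between these same arrays, so the differences of the 5 genes are given as a description and without a test.

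The samples were NCCs from the outflow tract (OFT) of mouse embryos at E10.5, midgestation, with 2 arrays of NKO mutants and 2 arrays of control littermates. NKO mutants were Wnt1-Cre;ILK f/f, in which both floxed copies of ILK are deleted in the neural crest by a Cre recombinase under the Wnt1 promoter. Controls were Wnt1-Cre;ILK f/+ in the methods and are called wildtype in the labels, so by the methods both genotypes carried Wnt1-Cre and at least 1 floxed ILK allele. OFTs of a genotype were pooled, and cells were stained with FDG, a substrate that the lacZ reporter of the Wnt1-Cre lineage turns fluorescent, before sorting by flow cytometry. Several sorts were pooled at RNA extraction, and each sample was read on 1 Affymetrix mouse genome array. The sources used here do not say how embryos and sorts were divided between the 2 samples of a genotype, so the spread between them may be technical in part. The deleted gene, Ilk, had intensities of 467.7 and 386.7 in the NKO samples, against 809.5 and 800.7 in the controls. Median intensities over all probe sets were 79.3 and 76.5 in the NKO samples and 77.2 and 75.9 in the controls. Correlations between arrays lay between 0.9948 and 0.9968. Over the 45037 probe sets tested, the median log2 difference, NKO minus control, was 0.013.

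Red blood cells do not arise from the neural crest. At midgestation, primitive red cells that were formed in the yolk sac circulate through the heart and the OFT, and in the mouse they still carry a nucleus. They make heme for hemoglobin in their mitochondria, starting with the enzyme encoded by Alas2. In mature red cells, carbon dioxide is turned into bicarbonate by carbonic anhydrases such as that of Car2, and the bicarbonate leaves the cell in exchange for chloride through the anion exchanger of Slc4a1. This exchanger also ties the membrane to the spectrin skeleton, and the glycoprotein of Rhag belongs to the Rh complex of the same membrane. Hemgn encodes hemogen, a nuclear protein of blood-forming cells. Alas2, Rhag and Slc4a1 are markers of the red cell lineage, whereas Car2 is also made in other tissues. Many red cell genes are switched on by the transcription factors GATA1 and KLF1.

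The promoters of Alas2, Rhag and Hemgn are shown because the RefSeq promoter table of mouse assembly GRCm38.p6 matched only these 3 of the 5 genes. All 3 hold a short GATA1 motif, and Alas2 and Rhag also a KLF1 motif. Each line gives the 250 bases before the start of transcription, read along the gene from 5′ to 3′. Capitals mark matches on either strand to the GATA1 motif, which is AGATAA or the same letters with T first, G last or both. They also mark the KLF1 motif, taken as CCACCC, or as the longer form that has CCN followed by CACCC. Alas2 lies at chrX:150547167-150547416 on the plus strand, Rhag at chr17:40810899-40811148 on the plus strand and Hemgn at chr4:46404184-46404433 on the minus strand. The Rhag window ends 50 bases inside the outermost start of the gene in the same annotation.
Alas2: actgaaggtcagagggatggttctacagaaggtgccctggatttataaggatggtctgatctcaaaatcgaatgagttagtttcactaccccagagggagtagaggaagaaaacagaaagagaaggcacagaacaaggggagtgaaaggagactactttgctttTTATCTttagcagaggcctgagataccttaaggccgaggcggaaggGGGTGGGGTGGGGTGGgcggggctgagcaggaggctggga
Rhag: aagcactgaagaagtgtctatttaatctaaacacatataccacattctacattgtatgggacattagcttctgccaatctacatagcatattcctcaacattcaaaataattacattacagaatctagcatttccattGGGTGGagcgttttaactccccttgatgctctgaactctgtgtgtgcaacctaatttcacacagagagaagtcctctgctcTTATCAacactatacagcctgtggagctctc
Hemgn: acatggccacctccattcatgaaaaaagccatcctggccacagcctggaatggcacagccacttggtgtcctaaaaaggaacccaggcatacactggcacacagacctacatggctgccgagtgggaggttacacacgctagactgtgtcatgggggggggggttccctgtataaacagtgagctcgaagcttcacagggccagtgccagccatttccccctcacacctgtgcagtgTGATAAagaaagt

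Each of the 3 windows held a GATA1 motif. Positions are counted from the start of transcription, negative before it. In Alas2, AGATAA on the minus strand lay at −86, and in Rhag, TGATAA on the minus strand lay at −31. In Hemgn, TGATAA lay at −13 on the plus strand and AGATAA at 29, outside the stretch shown. Of all 32851 promoter windows, which hold 250 bases before and 50 bases after a start, 29.8% had at least 1 of the 4 GATA1 motifs. The KLF1 motif CCACCC occurred on the minus strand in Rhag at −112, and in Alas2 at −40, −35 and −30, where matches overlap each other and those of the longer form. Hemgn had no KLF1 match in its window. A KLF1 motif was found in 35.9% of all windows, and motifs of both factors in 8.51%. These matches describe the letters of the windows only.

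In both NKO samples, all 5 red blood cell genes had a higher signal than in both controls. Their log2 differences, on the log2(intensity + 16) scale, lay between 0.22 (Car2) and 0.39 (Rhag) with a median of 0.29, and 0 of the 5 reached the 1.5-fold cutoff of the methods. The same order of samples, both NKO above both controls, was found in 24.2% of all probe sets tested, and 0.286% were at least 1.5-fold higher. Of the 542 genes named alone in the authors' table, 315 had both NKO samples above both controls and 219 had both below. Since the rule itself drew on this contrast, nothing is read from the 5 genes against these shares and counts. Whether these signals came from red cells was not tested. If they did, a different number of red cells among the sorted cells and a different amount of RNA per red cell cannot be told apart in these pooled samples.

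For heme synthesis, Alas2 encodes the red cell form of aminolevulinate synthase, the first enzyme of the pathway. Its intensities were 550.5 and 515.9 in the NKO samples, against 445.8 and 456.1 in the controls, so the lowest NKO value was 1.13-fold the highest control value. The means were 533.2 ± 24.4 in NKO mutants and 451.0 ± 7.32 in controls (SD, n = 2 each), a ratio of 1.18. The log2 difference was 0.23 with a standard error of 0.065, and the pooled SD within genotypes was 0.048.

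For the membrane, Slc4a1 was read by a pair of probe sets. The brighter one, whose suffix _x_at marks probes that may also match other transcripts, gave 951.3 and 1097 in the NKO samples, against 827.3 and 834.0 in the controls. The other gave 980.6 and 915.1 in the NKO samples, against 754.4 and 796.9 in the controls. The genotypes did not overlap on either probe set, although the second NKO sample was the higher one on the first probe set and the lower one on the other. The means were 1024 ± 103 in NKO mutants and 830.6 ± 4.78 in controls by the brighter probe set, and 947.9 ± 46.4 and 775.7 ± 30.1 by the other (SD, n = 2 each). Log2 differences were 0.29 (standard error 0.090) and 0.28 (standard error 0.071), 0.0095 apart. That of the brighter probe set was 0.19 without the second NKO sample. The pooled SD within genotypes was 0.10 for the brighter probe set, the widest of the 6.

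Rhag, which encodes the Rh-associated glycoprotein, a channel-like protein needed for the Rh complex to reach the membrane, had the largest difference of the 5 genes. Its intensities were 116.6 and 121.2 in the NKO samples, against 90.3 and 83.9 in the controls. The lowest NKO value was 1.29-fold the highest control value, the widest gap of the 6 probe sets. The means were 118.9 ± 3.25 in NKO mutants and 87.1 ± 4.49 in controls (SD, n = 2 each), a ratio of 1.36. The log2 difference was 0.39 (standard error 0.066) against a pooled SD of 0.051. Rhag was also the dimmest of the 6 probe sets, where the added 16 narrows a difference: it was 0.45 with no offset and 0.28 with an offset of 64.

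Car2, the gene of a cytosolic carbonic anhydrase, had intensities of 1965 and 1901 in the NKO samples, against 1631 and 1683 in the controls. The means were 1933 ± 45.2 in NKO mutants and 1657 ± 36.3 in controls (SD, n = 2 each). This was the smallest ratio of the 6 probe sets, at 1.17, with a log2 difference of 0.22 (standard error 0.060) and a pooled SD of 0.032. Hemgn, which in mice is expressed in blood-forming tissues, had intensities of 479.2 and 463.5 in the NKO samples, against 375.3 and 387.8 in the controls. Its means were 471.4 ± 11.1 in NKO mutants and 381.6 ± 8.88 in controls (SD, n = 2 each), a ratio of 1.24. Its log2 difference was 0.29 (standard error 0.060), with a pooled SD of 0.033. For both genes the difference between genotypes was larger than that between samples of a genotype. Their selection on this contrast made that likely beforehand, so nothing is read from it.

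**Figure D1:**
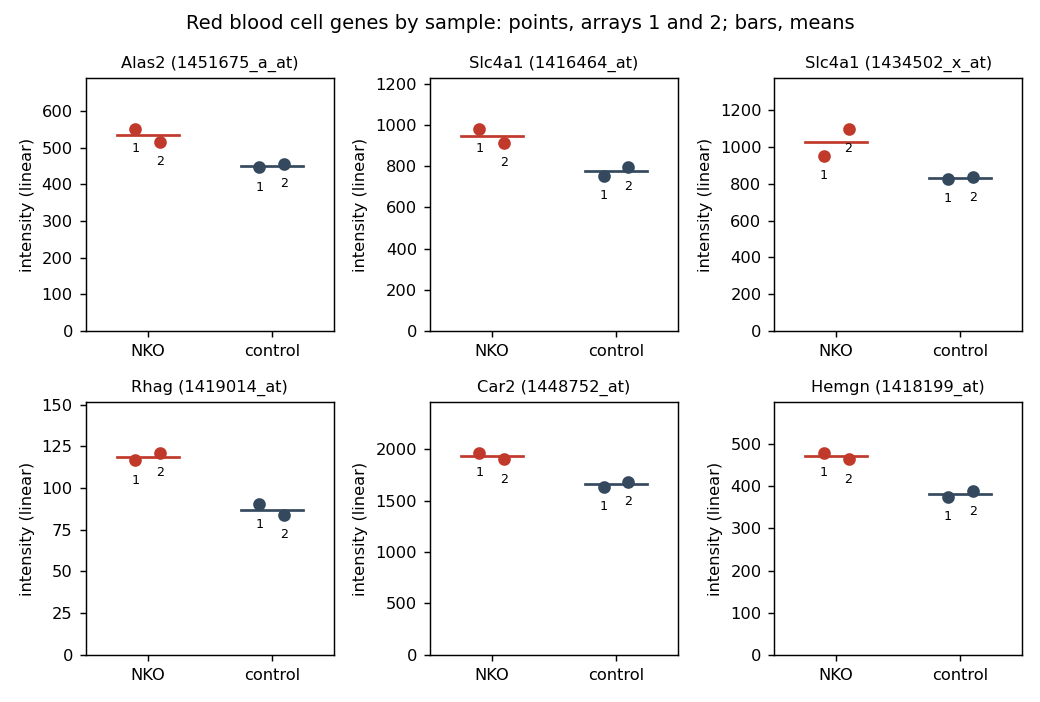
Linear array intensity (vertical axis from 0) of the 6 probe sets of the 5 red blood cell genes in the NKO samples (red) and the controls (dark), with sample numbers under the points and bars at the means of 2 arrays. On each probe set both NKO points lie above both control points, by the least in Car2 (1.13-fold between the nearest values) and by the most in Rhag (1.29-fold).

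The arrays also carry spiked transcripts, which allow the red blood cell genes to be set against signals that do not come from the cells. The hybridization controls BioB, BioC, BioD and Cre are bacterial and phage transcripts that are added to the labeled sample in known amounts before hybridization. Their 18 features had a median log2 difference of 0.22, with a range from 0.082 to 0.31, and on all 18 both NKO samples lay above both controls. By transcript, the medians were 0.24 for BioB, 0.25 for BioC, 0.21 for BioD and 0.11 for Cre, whose features were the brightest at 12078 to 16696 in the controls. The control features for mouse transcripts were less uniform. Their medians were 0.013 for beta-actin, −0.021 for Gapdh, −0.0089 for pyruvate carboxylase, −0.063 for the B1 and B2 repeats, 0.12 for the transferrin receptor and 0.22 for 18S rRNA. On 0 of the 3 features of 18S rRNA were both NKO samples above both controls, and the first NKO sample was the highest on each.

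Of the 5 red blood cell genes, Rhag alone lay above the whole range of the hybridization controls, by 0.076. Slc4a1 and Hemgn lay within that range and above its median, by 0.076 and 0.077. Alas2 was above the median by 0.017 and Car2 by 0.0032. For Alas2, Car2 and both probe sets of Slc4a1, the excess over the median was less than the standard error. All 5 genes were thus above this median, as were 7.84% of all probe sets tested, and 7.56% had a difference at least as large as that of Car2, the lowest of the 5. Over the 5 genes, the median difference exceeded that of the hybridization controls by 0.076. The excess was 0.020 without the second NKO sample and 0.017 without the second control. With Cre alone as the comparator, the excess was 0.18, and with BioC alone 0.041. No test was made of this excess, since the genes were chosen on the contrast and 2 samples against 2 cannot give a two-sided exact permutation p below 0.333.

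**Figure D2:**
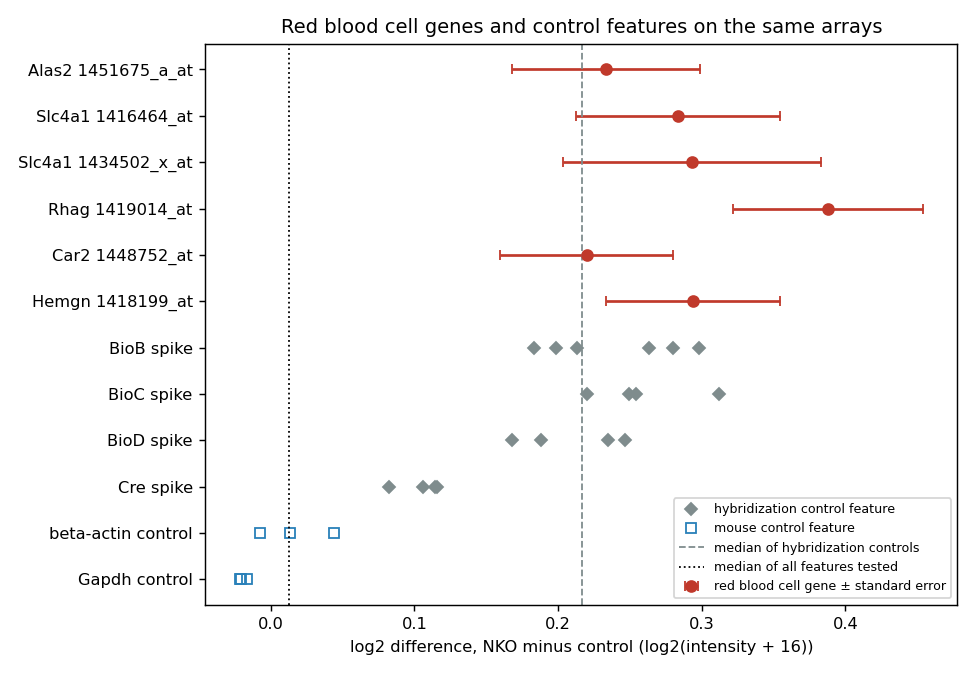
Log2 difference, NKO minus control, of the 6 probe sets (red, with limma's standard error), of the hybridization control features by transcript (grey diamonds) and of the mouse actin and Gapdh control features (open squares). The dashed line is the median of the hybridization controls, 0.22, and the dotted line that of all probe sets tested, 0.013; the standard errors of Alas2, Slc4a1 and Car2 reach across the dashed line, whereas those of Rhag and Hemgn do not.

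Samples of 1 genotype also differed in the spiked transcripts. The median deviation of the hybridization controls was higher in the first NKO sample than in the second by 0.095 on the log2 scale, and higher in the second control than in the first by 0.12. The probe sets of Alas2, Car2 and Hemgn and the dimmer one of Slc4a1 had this order of samples in both genotypes, 4 of 6 in all. Their steps were 0.047 to 0.098 between the NKO samples and 0.032 to 0.078 between the controls. Rhag had the opposite order in both genotypes, with steps of −0.049 and −0.089. The brighter probe set of Slc4a1 had the opposite order in the NKO samples, with a step of −0.20, and a step of 0.012 in the controls. The share of all probe sets with the order of the spiked transcripts was not counted, so nothing is read from the 4 of 6. Whether the spiked transcripts and the red blood cell genes moved for a common reason was not tested.

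When each array was shifted by the median deviation of its hybridization controls, the genotypes separated on fewer of the 5 genes. Hemgn kept both NKO samples above both controls, with a log2 difference of 0.069. The share of all probe sets with this order on the shifted scale was not counted, so nothing is read from the number of genes that separated. The samples of the genotypes overlapped for Rhag at 0.16, Slc4a1 at 0.069, Alas2 at 0.0089 and Car2 at −0.0045. The pooled SD within genotypes became 0.12 for Rhag and 0.16 for Slc4a1, and was 0.042 for Alas2 and Hemgn and 0.043 for Car2. For the 5 genes, values on this scale were also centred on each gene's mean and averaged. They were −0.024 and 0.085 in the NKO samples, against 0.023 and −0.084 in the controls, so the genotypes overlapped. The median over all probe sets tested was −0.21 on this scale. The shift moves every probe set of an array by the same amount, so it could not change the place of the 5 genes above that median. This shift was chosen after the values were seen.

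**Figure D3:**
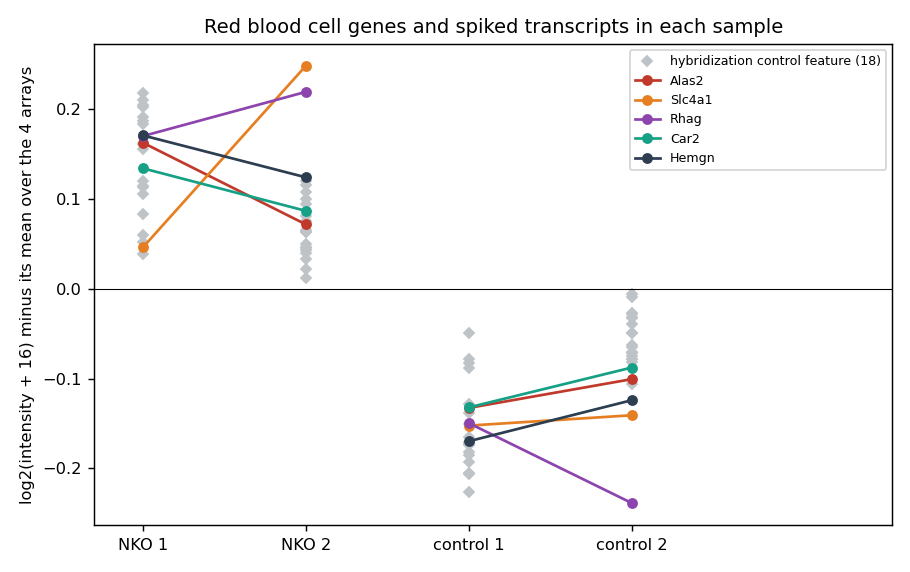
Log2(intensity + 16) of each red blood cell gene (colored points, brighter probe set for Slc4a1) and each hybridization control feature (grey) in the 4 samples, after subtracting its own mean over the 4 arrays. Lines join samples of 1 genotype and mark no order; all 5 genes and all 18 features lie above 0 in the NKO samples and below 0 in the controls, while Rhag and Slc4a1 peak in the second NKO sample, above every grey point there.

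Genes around these 5 in red cell biology were less uniform. Of 116 red blood cell genes in 6 lists, 11 were named alone in the authors' table, and 8 of these were higher and 3 lower in the NKO samples, with no overlap of the genotypes. For comparison, 24.2% of all probe sets had both NKO samples above both controls, and 18.4% had both below. Without the 5 genes, 3 were higher and 3 lower, with a median of 0.019. Among the 542 genes named alone in the authors' table, 315 had both NKO samples above both controls and 219 had both below. The authors had selected all 11 red cell genes as differing on these arrays, so the split is a description.

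Among the genes with higher signals was Tal1, a transcription factor required for all blood lineages, with 286.6 and 279.9 in the NKO samples, against 234.4 and 236.0 in the controls. Prdx2, an abundant peroxide-reducing enzyme of red cells that is also made in other cells, had 1006 and 963.7 in the NKO samples, against 796.0 and 795.2 in the controls. Ube2o, a ubiquitin ligase that clears ribosomal proteins from maturing red cells, had 309.0 and 281.2 in the NKO samples, against 259.3 and 227.6 in the controls. Their log2 differences were 0.25, 0.30 and 0.26.

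The lower genes included an enzyme of the same pathway as Alas2. Ppox, which carries out a late step of heme synthesis and is expressed in most tissues, had 229.1 and 247.6 in the NKO samples, against 291.9 and 300.4 in the controls. Its log2 difference was −0.30 (standard error 0.068). Tgm2, a transglutaminase of many cell types, had 502.2 and 473.5 in the NKO samples, against 567.5 and 569.1 in the controls, a difference of −0.21. Ube2l6, a conjugating enzyme for the ubiquitin-like protein ISG15, had 37.4 and 42.5 in the NKO samples, against 65.9 and 59.3 in the controls, a difference of −0.49. All 3 are active outside the red cell lineage as well, as are Prdx2 and Car2 among the higher genes.

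None of the 13 genes on the list of globins and their chaperone and none of the 16 genes of iron uptake is named alone in the authors' table, and neither are the red cell markers Klf1 and Gata1. These genes were not analysed here under their names, and nothing follows for their levels. The transferrin receptor, which brings iron into red cell precursors, can be read from 3 Affymetrix control features that carry its name and that the rule did not use. The 3′ feature gave 57.5 and 61.7 in the NKO samples, against 53.5 and 53.5 in the controls, a log2 difference of 0.12. The middle feature gave 14.8 and 5.69 in the NKO samples, against 10.1 and 5.77 in the controls, with overlapping genotypes. The 5′ feature gave 14.7 and 12 in the NKO samples, against 17.4 and 17.0 in the controls, a log2 difference of −0.18. With limma over all 45101 probe sets, the adjusted p was 0.623 for the 3′ feature, 0.875 for the middle one and 0.578 for the 5′ one. The transferrin receptor was therefore not shown to differ between the genotypes, and all 3 features were dimmer than the median probe set.

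Over all 45037 probe sets, limma called 0 at an adjusted p under 0.05 (lowest 0.276), 0% of those tested, and so 0 of the 11 red cell genes. At an unadjusted p under 0.05, 5.18% of all probe sets were higher and 3.64% lower, and all 11 red cell genes were among them, 8 higher and 3 lower. When limma's moderation was made robust and given an intensity trend, 313 probe sets (0.695% of all) passed the adjusted threshold as higher and 207 as lower. In that fit, 3 of the 5 genes passed, and 2 of the other 6 red cell genes, counted in either direction. The authors had selected all 11 on this contrast, so these counts follow from that selection to an extent that was not measured.

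Genes of other blood cells and of vessels were higher in the NKO samples too, where they could be read by name. The authors had selected these genes as differing on the same arrays, so their counts and differences are a description and nothing is read from them against all probe sets, of which 24.2% had both NKO samples above both controls and 0.286% were at least 1.5-fold higher. All 11 megakaryocyte and platelet genes named alone in the table, of 24 on the list, were higher by 0.31 to 0.90 with a median of 0.62, and 7 passed 1.5-fold. The platelet chemokine gene Ppbp, for instance, had 1045 and 1071 in the NKO samples, against 565.0 and 553.3 in the controls, and Pf4 had a log2 difference of 0.86. The 4 named myeloid genes, of 24, were higher by 0.41 to 0.92, with the granule enzyme gene Mpo at 0.92 and Ly86 at 0.53. The endothelial genes Flt1 and Plvap, the only named ones of 20, were at 0.32 and 0.29. The range of the 5 red blood cell genes, 0.22 to 0.39, thus lay mostly below those of the platelet and myeloid genes. These ranges were not compared by a test, and what the other cell types contribute to the result was not tested.

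**Figure D4:**
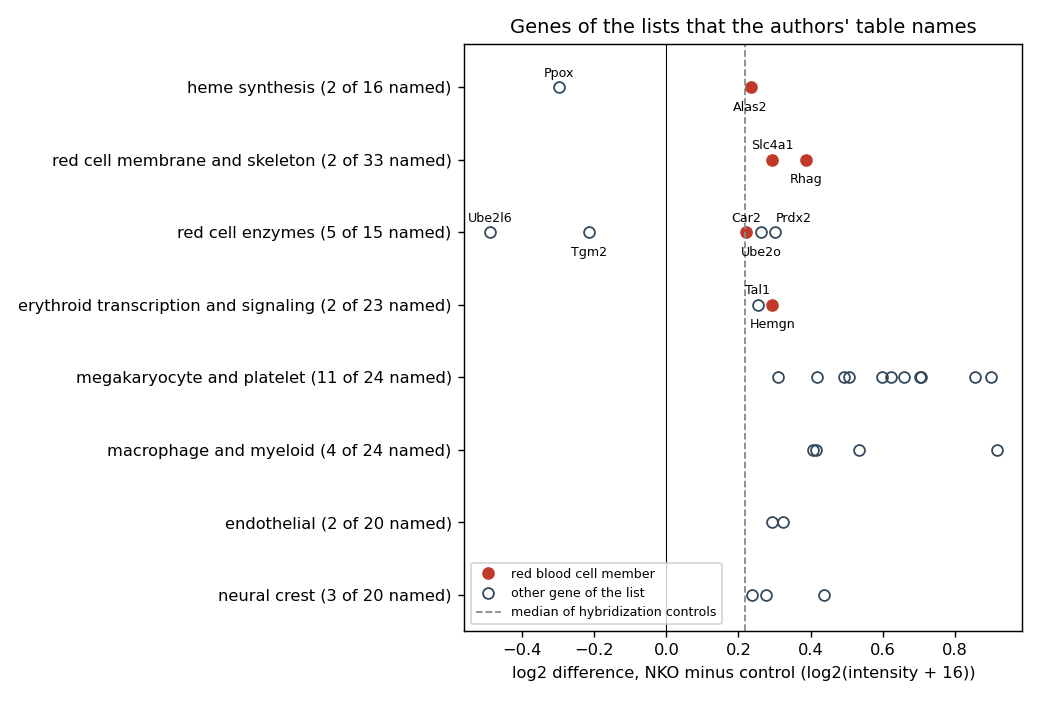
Log2 difference, NKO minus control, of each gene that the authors' table names alone, by list, with the 5 red blood cell genes filled and the others open. The dashed line is the median of the hybridization controls (0.22); the red cell lists hold genes on both sides of 0, from Ube2l6 at −0.49 to Rhag at 0.39, and platelet genes reach 0.90.

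The lineage of the sorted cells could not be checked here, because probe sets were named only through the authors' table. Of 20 neural crest genes on the list, only Prrx1, Msx2 and Pax3 were named alone, and the authors had selected them as differing. On each, both NKO values lay above both control values, which held for 24.2% of all probe sets. Msx2, a homeobox gene of migrating crest and its mesenchyme, had 707.2 and 699.2 in the NKO samples, against 584.6 and 572.1 in the controls. The log2 differences were 0.28 for Msx2, 0.44 for Pax3 and 0.24 for Prrx1, in the range of the red blood cell genes apart from Pax3. Sox10 and Foxd3 are not named alone in the table and were not analysed here.

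The pattern over the 4 samples was then compared with that of the other 537 genes named alone. Likeness was measured as the Euclidean distance between log2 values, each centred on its mean, and the mean profile of the 5 genes. The nearest genes were 2410016O06Rik (now Riox1) at a distance of 0.020, the cell surface sialomucin gene Podxl at 0.021, the Y-linked histone demethylase gene Kdm5d at 0.025, Erdr1 at 0.033 and Msx2 at 0.036. Kdm5d had 403.7 and 397.3 in the NKO samples, against 325.6 and 327.0 in the controls. The methods do not give the sex of the pooled embryos, and whether it differed between the genotypes was not tested. Each of the 5 red blood cell genes was farther from their own mean, from 0.050 for Hemgn, 0.082 for Car2 and 0.092 for Alas2 to 0.13 for both Rhag and Slc4a1. The nearest genes have the smallest distances out of 537, whereas the 5 red blood cell genes were not picked by distance. Nothing is therefore read from the larger distances of the 5. The profiles are over 4 samples only, and the table holds genes picked for this contrast.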

How the data were processed

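Intensities of 45101 probe sets on 4 arrays (2 NKO, 2 control) were deposited by the authors on a linear scale. The tool in the submitters' processing notes is Affymetrix Expression Console, run with an algorithm not given in the sources used here. Averaged, the control columns were within 0.0447% of the control intensity that the authors' own table holds, so both are on 1 scale. That table, made with VAMPIRE, holds 766 probe sets, with 603 naming 1 gene, 48 several and 115 none, and 0 of the 48 naming one of the 5 genes. It was used for names only. Its fold changes and p-values are the authors' own comparison and were not used.

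The 64 Affymetrix controls were left out, and lmFit and eBayes (limma 3.58.1, R 4.3.3) were run on log2(intensity + 16) for NKO minus control, with Benjamini-Hochberg adjustment over 45037 probe sets and a threshold of 0.05. The transferrin receptor features were fitted with the controls kept. Python 3.11.15 with numpy 2.4.6, pandas 2.3.3, matplotlib 3.10.9 and SciPy 1.17.1 made the tables and figures. Of several probe sets of a gene, the brightest was used. The number of arrays limits the precision.

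The 5 genes and all lists were chosen with earlier results of these data known. Named genes were the 5, every other red cell gene that the table names alone, the 2 smallest limma p of each other list, Ilk, and the 5 nearest profiles. Prrx1 and the check of missing markers were added after values were seen. Alternatives covered the offset, scaling, dim probe sets, moderation, the methods' t-test, the replicate number as a block and each array left out.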

Additional observations from a re-analysis of the deposited data

Results flagged for a closer look

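The Dap spike, a bacterial poly(A) control that is carried through amplification and labeling and that belongs to none of the comparisons above, had its NKO signals above all control signals on all 6 of its features, with a median log2 difference of 0.50. This was larger than the median of 0.29 of the 5 red blood cell genes and that of 0.22 of the hybridization controls. The brightest Dap feature gave 663.2 and 571.4 in the NKO samples, against 447.6 and 423.9 in the controls. The other poly(A) spikes were less uniform. Both NKO samples lay above both controls on 3 of 6 features of Lys (median 0.27), 2 of 6 of Phe (median 0.17) and 3 of 6 of Thr (median 0.22, from −0.29 to 0.71), and below both on 1 of Thr. These features were dim, with control means of 24.9 to 63.1 for Lys, 27.8 to 80.4 for Phe and 16.5 to 62.1 for Thr. Those of Dap were 29.7 to 436. Of the 3 Trp features, with control means of 4.69 to 28.1, 1 was above and 1 below in this sense (median −0.033).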

How the results depend on the processing

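The number of arrays and the dim signal of Rhag and of the transferrin receptor features limit these values. With quantile normalization and with median centring, all 5 genes kept a positive difference, and both NKO samples stayed above both controls on all 5. The same held with every offset and without any 1 array, but there it was fixed beforehand. Neither step can undo an order of samples without overlap, so these settings could change only the size of a difference. The exceptions came from scaling on the spiked transcripts. With each array centred on the median of its hybridization controls, the median of the 5 genes was 0.027 and that of the hybridization controls −0.049, with 0 genes separated; Alas2 was at −0.033 and Car2 at −0.046, while the median of all probe sets was at −0.25. With the shift by the median deviation, added after the data were seen, the values were 0.069 and −0.0078 with 1 gene separated, and Car2 was at −0.0045. The share of all probe sets separated on either scale was not counted. The excess over the hybridization controls was 0.18 with Cre alone and ranged from 0.017 to 0.11 when 1 array was left out.

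Counts at 1.5-fold were 200 (129 higher, 71 lower), 3739 with no offset (1987 and 1752), 36 with an offset of 64, 51 without dim probe sets, 956 centred on the hybridization controls (18 and 938), 674 shifted by their deviation (24 and 650) and 395 to 646 with 1 array left out. Counts at limma's adjusted threshold were 0, against 60 with an offset of 64, 52 without dim probe sets, 3345 centred on the hybridization controls, 1672 shifted by their deviation and 520 with an intensity trend and robust moderation. Their causes were not tested. The methods' t-test passed 3973 at an unadjusted p under 0.05 and 0 after Benjamini-Hochberg adjustment. With the replicate number as a block, limma called 0 and 3440 at an unadjusted p under 0.05. Same-numbered samples share only a number (correlation of deviations −0.033).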
